A study of Mus musculus with 4 samples.

Results

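Marker genes of lymphatic endothelium were followed through the cardiac chambers of adult mice with and without Mef2a, the gene of a transcription factor that acts in heart and skeletal muscle. They were taken by name as Lyve1, Prox1, Pdpn, Flt4, Reln, Mmrn1 and Fgl2, and all 7 had a probe set among the 18781 named genes measured. RNA was read in 4 groups: atria and ventricles of wild type mice (Mef2a+/+) and of knockout mice (Mef2a-/-). All mice were 2 months old. Each group was 1 array carrying RNA pooled from 7 animals of mixed sex. The labels give neither the strain nor the part of the gene removed, and the groups share no other allele or treatment in them.

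Each group was read once, so no spread within a group is known, no difference below was tested and each one describes these pools. A level is a log2 intensity made by RMA, and a ratio is the difference of 2 such levels. Between genotypes a gene counted as higher or lower when its ratio reached 1.5-fold (0.58 on the log2 scale), and between chambers when its ratio reached 2-fold (1 on the log2 scale). Genes dimmer than the overall median value, 5.71, on both arrays of a comparison were not counted, and that value is called the floor. Levels of different genes are not compared with each other, because probes differ in how strongly they bind. In whole chambers, fewer cells of a type and less RNA per cell cannot be told apart.

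Lymphatic capillaries and collecting vessels drain fluid and immune cells from tissue, and in the heart they run through the wall beneath the epicardium. PROX1 is the homeobox factor that sets and keeps lymphatic identity, and VEGFR3, encoded by Flt4, is the receptor through which the growth factor VEGF-C drives lymphatic growth. LYVE1 is a hyaluronan receptor of lymphatic capillaries, and podoplanin, encoded by Pdpn, is a surface mucin that binds CLEC-2 on platelets. Reelin and multimerin 1, encoded by Reln and Mmrn1, are secreted glycoproteins, and Fgl2 encodes a fibrinogen-like protein with a membrane and a secreted form. None of these genes belongs to lymphatic endothelium alone: resident macrophages carry LYVE1, cardiomyocytes express Prox1, fibroblasts and mesothelium express Pdpn, neurons express Reln, platelets hold multimerin 1, and leukocytes and blood endothelium express Fgl2.

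The array medians lay between 5.66 and 5.75, and the knockout atria array had the narrowest interquartile range, 2.97 against 3.18 to 3.21. Mef2a itself stood at 10.32 and 10.41 in wild type and knockout atria and at 10.28 and 10.34 in the ventricles, so its signal was not lower on the knockout arrays. Whether its probes lie in the deleted part is not given in the sources used here, so they check nothing, and the genotypes are those of the labels. Xist was lower by 0.33 in the knockout than the wild type atrial pool and by 0.15 in the ventricular pools, and the Y-linked genes Uty and Kdm5d differed by −0.03 and −0.21 in the atrial pools and by −0.04 and −0.16 in the ventricular pools. The part of pool sex in any ratio was not tested.

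Between chambers the 7 genes did not move as one group. Lyve1, Pdpn and Fgl2 were brighter in atria in both genotypes. Prox1, Flt4, Reln and Mmrn1 were brighter in ventricles in both genotypes. The wild type and the knockout chamber comparison share no array, but the share of all genes that kept their side in both was not counted. All 7 kept their chamber sign after subtraction of array medians, after quantile normalization and after lowess centring. Reln and Mmrn1 lay below the floor on all 4 arrays, and the other 5 lay above it on all 4. The chamber ratios of these 5 all lay inside the central 95% of genes at the floor, −0.94 to 1.26 in wild type and −1.04 to 1.21 in knockout. Between genotypes the central 95% ran from −0.55 to 0.45 in atria and from −0.33 to 0.32 in ventricles. Fgl2 in ventricles was the 1 genotype ratio of these 5 genes outside it.

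**Figure D1:**
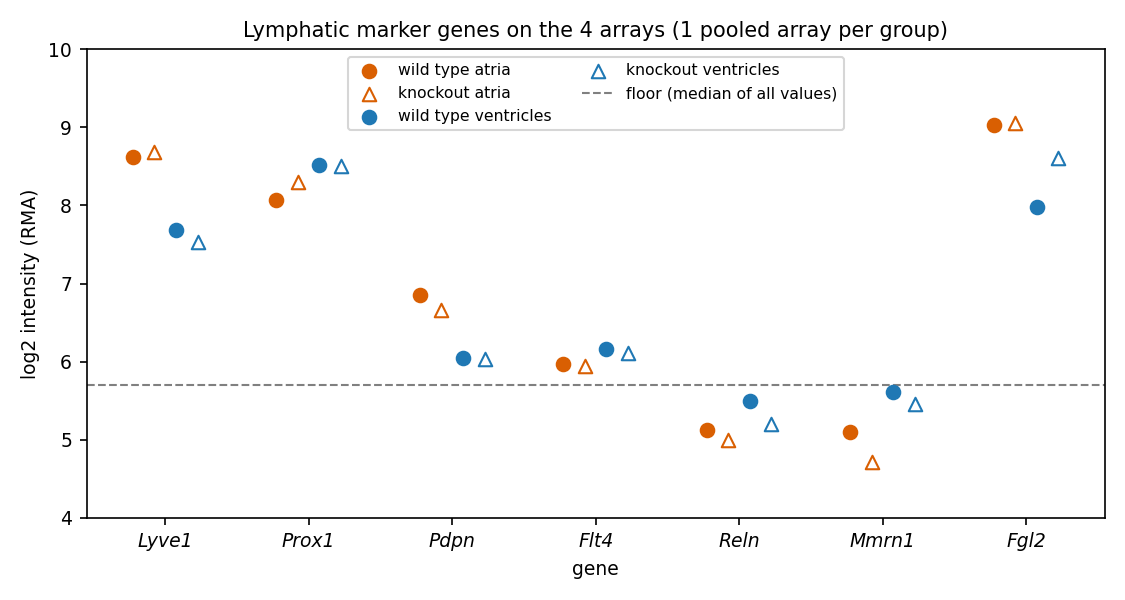
Log2 intensity (vertical axis) of the 7 lymphatic marker genes on the 4 arrays, 1 point per array, with atria in orange, ventricles in blue, wild type as filled circles and knockout as open triangles. Lyve1, Pdpn and Fgl2 sit higher in atria, the other 4 genes sit higher in ventricles, and Reln and Mmrn1 stay under the dashed floor at 5.71.

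Among the surface receptors and mucins, Lyve1 had the widest range over the 4 arrays, 1.16 log2 units. Its level was 8.63 in wild type atria, 8.69 in knockout atria, 7.68 in wild type ventricles and 7.53 in knockout ventricles. Both atrial arrays were above both ventricular arrays. The chamber ratio was 0.94 in wild type (1.92-fold), short of 2-fold, and 1.16 in knockout (2.24-fold), past it. Of all genes at the floor, 4.21% in wild type and 2.71% in knockout were at least as far towards atria. Between genotypes Lyve1 differed by 0.06 in atria and −0.16 in ventricles, and neither reached 1.5-fold.

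Pdpn stood at 6.85 in wild type atria, 6.66 in knockout atria, 6.05 in wild type ventricles and 6.03 in knockout ventricles. Atria were higher by 0.80 in wild type (1.75-fold) and by 0.63 in knockout (1.55-fold), under the 2-fold line in each. The genotype ratio was −0.19 in atria and −0.02 in ventricles, where the sign turned under median centring.

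Flt4 was the flattest of the 7, with a range of 0.22 over the arrays. It read 5.97 in wild type atria, 5.95 in knockout atria, 6.17 in wild type ventricles and 6.11 in knockout ventricles, little above the floor. Its chamber ratios were −0.20 in wild type and −0.16 in knockout, and its genotype ratios −0.02 in atria and −0.06 in ventricles. At this level RMA compresses differences, so a small ratio here does not show equal expression.

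Prox1, the transcription factor of the set, stood at 8.07 in wild type atria, 8.30 in knockout atria, 8.514 in wild type ventricles and 8.505 in knockout ventricles. Its order of chambers was the opposite of that of Lyve1. The chamber ratio was −0.44 in wild type (1.36-fold higher in ventricles) and −0.21 in knockout (1.16-fold). Between genotypes it differed by 0.23 in atria and −0.01 in ventricles, and the latter sign turned under median centring. Cardiomyocytes also express Prox1. A list of 16 cardiomyocyte genes had a median chamber ratio of −0.08 in wild type and −0.11 in knockout, and both signs turned under lowess centring. In each genotype 4 of these genes were past 2-fold higher in atria and 4 past 2-fold lower. Of them Irx4 reached the floor in ventricles only, and in knockout Sln reached it in atria only. The median of such a mix does not measure cardiomyocyte RNA in a chamber. The part of cardiomyocyte RNA in the Prox1 values was not tested.

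Reln and Mmrn1, the genes of secreted glycoproteins, were below the floor throughout. Reln stood at 5.13 in wild type atria, 4.998 in knockout atria, 5.49 in wild type ventricles and 5.21 in knockout ventricles. Mmrn1 stood at 5.09, 4.71, 5.61 and 5.46 in the same order. Both genes were lower in knockout than in wild type in each chamber, by 0.13 and 0.29 for Reln and by 0.38 and 0.16 for Mmrn1. As a yardstick near background, olfactory and vomeronasal receptor genes below the floor had a central 95% of genotype ratios from −0.25 to 0.58 in atria and from −0.35 to 0.47 in ventricles. The atrial ratio of Mmrn1, −0.38, lay outside that range, and the other 3 genotype ratios of this pair lay inside it. Between chambers Mmrn1 stood at −0.52 in wild type and −0.74 in knockout, both outside the receptor genes' ranges of −0.50 to 0.33 and −0.47 to 0.55. Reln, at −0.37 and −0.21, lay inside them. The receptor genes were not matched in level to this pair. Each Mmrn1 ratio outside a receptor range lay inside the central 95% of genes at the floor in its comparison, −0.55 to 0.45 between atrial genotypes. Neither gene could be counted as changed, since no array reached the floor.

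Fgl2 was the member with a genotype difference past 1.5-fold. Its level was 9.03 in wild type atria, 9.05 in knockout atria, 7.98 in wild type ventricles and 8.61 in knockout ventricles. The wild type ventricular array stood apart below the other 3. Knockout ventricles were higher than wild type ventricles by 0.63, or 1.55-fold, just past the 1.5-fold line, and 41 of 9712 genes at the floor (0.422%) were at least as far up. In atria the genotype ratio was 0.02, with its sign turned under median centring. The chamber ratio was 1.06 in wild type (2.08-fold) and 0.44 in knockout (1.36-fold). This drop of 0.62 is the same number as the gap between the ventricular and atrial genotype ratios, since both use the same 4 values.

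The stretches before the annotated start sites of Fgl2 and Pdpn are shown because Fgl2 is the member past 1.5-fold between genotypes and both share the atrial side with Lyve1. They are the 250 bases before the start, 5′ to 3′ on the gene's strand, from RefSeq on GRCm38.p6. Fgl2 lies at chr5:21372423-21372672 on the plus strand and Pdpn at chr4:143299565-143299814 on the minus strand. Capitals mark a motif match.
Fgl2: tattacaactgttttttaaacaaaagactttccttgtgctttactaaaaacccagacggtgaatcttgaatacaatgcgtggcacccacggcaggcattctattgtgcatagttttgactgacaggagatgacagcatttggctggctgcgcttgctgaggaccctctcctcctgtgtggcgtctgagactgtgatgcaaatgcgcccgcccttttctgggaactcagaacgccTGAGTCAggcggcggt
Pdpn: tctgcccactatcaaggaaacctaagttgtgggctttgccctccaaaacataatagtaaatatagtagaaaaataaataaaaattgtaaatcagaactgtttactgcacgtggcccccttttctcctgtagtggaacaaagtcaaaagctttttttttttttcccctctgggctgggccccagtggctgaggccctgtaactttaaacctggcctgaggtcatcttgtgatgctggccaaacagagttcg

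Of the 7 members 6 matched that table, with 7 windows in all because Prox1 has a pair of starts. The windows were searched on both strands for the MEF2 consensus, the AP-1 letters TGANTCA, the SOX letters AACAAT, the ETS letters CCGGAA, the GATA letters AGATAA, the TATA box letters TATAAA and the CCAAT box, the AP-1 and CCAAT searches being added after the sequences were seen. The MEF2 consensus was in none of the 7, and it occurs in 2.92% of 32851 windows of that length. The AP-1 letters of Fgl2, from base −16 to −10, occur in 6.75% of all windows. Prox1 had a TATA match from −34 to −29 before 1 of its starts (12.4% of all windows) and Reln an ETS match from −185 to −180 (12%), both on the opposite strand. Mmrn1 had a SOX match from −231 to −226 (9.42%) and a CCAAT from −124 to −120 (33.8%). The GATA letters, held by 9.99% of all windows, were in none, and no match overlapped another. These are matches of letters and not measured binding.

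The members' counts were set beside the shares over all genes, and each rests on 5 members at the floor. In atria 0 of 5 members at the floor passed 1.5-fold between genotypes, where 3.03% of 10050 genes did, 1.02% higher and 2.01% lower in knockout. In ventricles 1 of 5 was higher, Fgl2, where 1.2% of 9712 genes passed, 0.515% higher and 0.69% lower. In wild type 1 of 5 was at least 2-fold higher in atria, Fgl2, where 6.1% of 10034 genes passed, 3.89% higher and 2.21% lower in atria. In knockout 1 of 5 was higher in atria, Lyve1, where 6.3% of 10120 genes passed, 3.46% higher and 2.85% lower. The median ratio of the 5 members was 0.02 and −0.02 between genotypes in atria and ventricles, against −0.03 and 0.00 over all genes at the floor, and both member medians changed sign under median centring. Between chambers it was 0.80 in wild type and 0.44 in knockout, against −0.01 and −0.05 over all genes, with 3 members positive and 2 negative each time. Over all 7 members, with Reln and Mmrn1 kept, the chamber median was −0.20 in wild type and −0.16 in knockout, with 3 positive and 4 negative, so the sign of the median depends on whether the dim pair is counted.

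**Figure D2:**
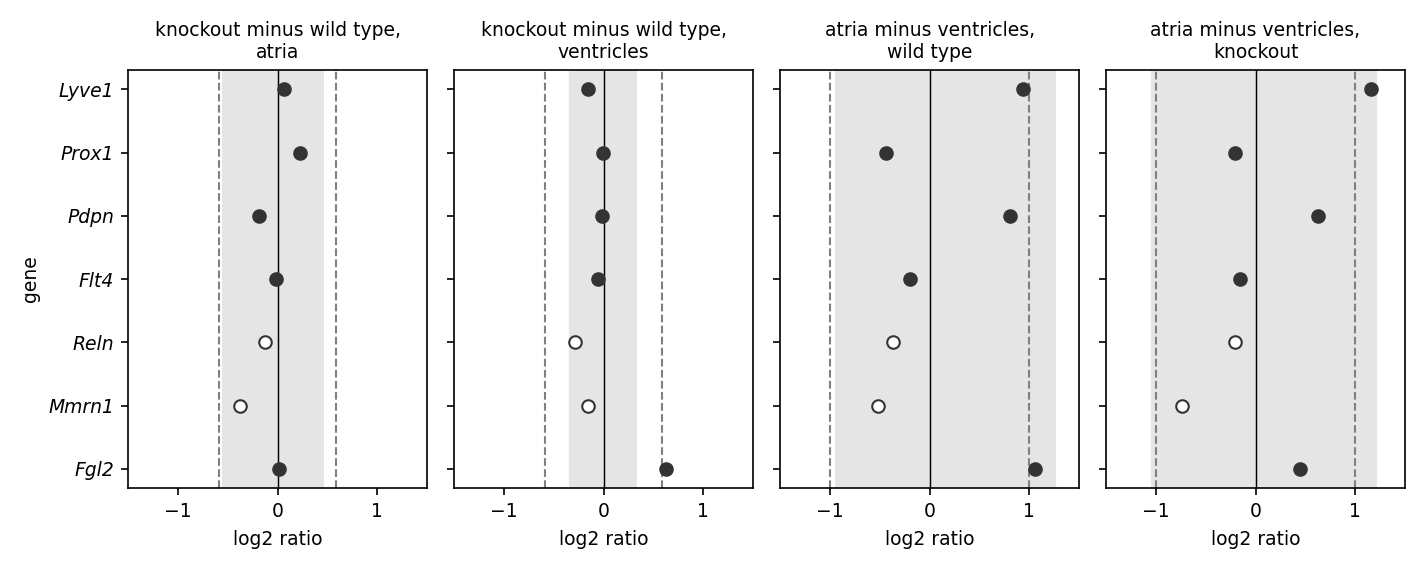
Log2 ratio (horizontal axis) of each lymphatic marker gene in the 4 comparisons, with genes at the floor filled and Reln and Mmrn1 open. Grey bands hold the central 95% of all genes at the floor and dashed lines mark 1.5-fold (genotype) or 2-fold (chamber), so that Fgl2 at 0.63 is the member outside both in a genotype comparison.

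The pathway around these genes was read from lists of 16 VEGF-C and VEGFR3 signalling genes, 24 lymphatic transcription factors and valve genes, 12 genes of podoplanin, CLEC-2 and adrenomedullin signalling and 2 reelin partners with a probe set. Around VEGFR3, 0 of 14 genes at the floor passed 1.5-fold between genotypes in atria or in ventricles, with medians of 0.00 and 0.03, the first at −0.03 under median centring. Of the ligands, Vegfc stood at −0.15 in atria and −0.32 in ventricles, and Vegfd at −0.27 and 0.04. The co-receptor Nrp2 stood at 0.39 and 0.24, and the integrin subunit gene Itga9, needed for lymphatic valves, at 0.40 and 0.07. Between chambers, Angpt1, the ligand of the receptor TIE2, was higher in atria by 1.32 in wild type and 1.11 in knockout, and it was the 1 member of that list past 2-fold. Nrp2 was on the ventricular side, as were Flt4 and Prox1, at −0.91 and −0.76, as was Vegfc, at −0.70 and −0.53. Vegfc read 5.78 in wild type atria, little above the floor, and 5.63, below it, in knockout atria. Its chamber ratios and its atrial genotype ratio thus rest on values near background. Vegfd was on the atrial side, at 0.48 and 0.17, and the 14 genes at the floor split 7 to 7 in wild type and 8 to 6 in knockout. List medians between chambers were 0.05 and 0.08, the second with its sign turned under median centring.

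Of the transcription factor and valve genes, 0 of 19 passed 1.5-fold between genotypes in atria and 0 of 15 in ventricles, with medians of 0.08 and −0.01, the second turning sign under median centring. The largest ratios were those of Foxc2, a forkhead factor of lymphatic valves, at −0.51 and of the vascular junction gene Rasip1 at 0.48, both in atria. Higher in atria than ventricles by 2-fold were Foxc2 (1.92), Foxc1 (1.81) and Nr2f2 (1.81) in wild type, and the same genes in knockout (1.10, 1.33 and 1.83), where Foxc2 was short of 2-fold under lowess centring at 0.99. Foxc2 and Foxc1 lay below the floor on both ventricular arrays, so they were counted through atria alone and their ratios are against values near background. Nr2f2 encodes COUP-TFII, a partner of PROX1 that also marks atrial cardiomyocytes. The list medians between chambers were −0.03 and 0.08, the second with its sign turned under median centring.

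In podoplanin and adrenomedullin signalling, 0 of 10 genes passed 1.5-fold between genotypes in atria, where Adm stood at 0.38 and the kinase gene Syk at −0.35. In ventricles 1 of 11 did: Plcg2, a phospholipase downstream of CLEC-2, was lower at −0.61. It was short of the line at 0.585 after median centring (−0.583) and quantile normalization (−0.56). Plcg2 lay below the floor in knockout ventricles, at 5.57, and was counted through wild type ventricles alone, at 6.18. Its ratio is thus against a value near background. The medians were 0.12 and 0.05. Adm, whose peptide acts on lymphatic endothelium, was higher in atria by 2.17 in wild type and 2.34 in knockout, the 1 gene of its list past 2-fold, with medians of 0.20 and 0.22. Clec1b, the gene of CLEC-2 itself, lay below the floor at 3.08 to 3.67. Of the reelin receptors, Vldlr stood at 0.09 and −0.09 between genotypes and at −0.24 and −0.06 between chambers, the last with its sign turned under quantile normalization and lowess centring, and the adaptor gene Dab1 lay below the floor on each array.

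A further 12 genes reported from lymphatic endothelium had a probe set. Between genotypes 1 of 8 at the floor passed in atria, the growth factor gene Igf1 at −0.76, and 0 of 7 in ventricles, with medians of −0.19 and −0.16. The largest ventricular ratio was that of Sned1, an extracellular matrix gene, at −0.580, short of the line at 0.585. Between wild type chambers Foxp2 (1.13) and Igf1 (1.06) passed 2-fold towards atria, Foxp2 against a ventricular value below the floor, and the list median was 0.53. In knockout the median was 0.61 and the fatty acid receptor gene Cd36 was lower in atria at −1.01, a call lost under quantile normalization (−0.90) and lowess centring (−0.84). Stab2, Ackr2 and Nts, scavenger, chemokine-clearing and peptide genes of lymphatic endothelium, lay below the floor on each array. The share of lymphatic endothelium in the signal of the 7 genes, or of these further 12, Igf1 and Cd36 included, was not measured.

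Markers of the other cell types that carry these genes were read beside them. Of all genes at the floor, 48.4% were on the atrial side in wild type and 44.6% in knockout. Between genotypes, 43.1% were higher in knockout in atria and 51.2% in ventricles. The counts by side below stand beside these shares. Resident macrophages share Lyve1, and 13 of 16 macrophage genes at the floor were on the atrial side in wild type and 13 of 15 in knockout, with medians of 0.18 and 0.30 and 0 past 2-fold. The mean level of the 19 genes was 6.93 and 6.89 in wild type and knockout atria and 6.78 and 6.66 in the ventricles. The markers of LYVE1-positive resident macrophages stood, in wild type chambers, at 0.75 for Timd4, 0.54 for Cbr2, 0.20 for Folr2, 0.16 for Cd163 and −0.04 for Mrc1. The ratio of Lyve1 there was 0.94. Timd4 stood at 5.86 in wild type atria and below the floor, at 5.10, in wild type ventricles. Its ratio is thus against a value near background. In knockout ventricles 14 of 15 macrophage genes were lower than in wild type, with a median of −0.12, beside −0.16 for Lyve1 and 0.63 for Fgl2. In atria their genotype median was −0.04, with its sign turned under quantile normalization. Their part in the Lyve1 and Fgl2 values was not tested.

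Mesothelium and fibroblasts share Pdpn. Of the epicardial and mesothelial genes, 16 of 16 at the floor were on the atrial side in each genotype and 11 were past 2-fold, led by Gpm6a (2.97) and Upk1b (2.85) in wild type, with medians of 1.38 and 1.28. In each genotype 8 of these 16, and 6 of the 11, lay below the floor in ventricles. They entered the count only through atria, where they are high, and their ratios, that of Upk1b included, are against values near background. The mean level of the list was 7.08 in wild type atria and 5.63 in wild type ventricles, and stood at 7.04 and 5.65 in knockout. Fibroblast genes were on the atrial side in 16 of 17 in wild type and 17 of 17 in knockout, with 4 and 3 past 2-fold and medians of 0.71 and 0.53 beside 0.80 and 0.63 for Pdpn. Their mean level was 8.66 and 8.35 in wild type and knockout atria and 7.996 and 7.85 in the ventricles. Between atrial genotypes 14 of 17 fibroblast genes were lower in knockout, with a median of −0.27 and 3 past 1.5-fold: Lum (−0.84), Pdgfra (−0.63) and Dpt (−0.62), the last a call lost under quantile normalization and Pdgfra lost there and under lowess centring. In ventricles 15 of 17 were lower, with a median of −0.16 and 0 past 1.5-fold. Epicardial genes had genotype medians of 0.00 and 0.04, the first with its sign turned under median centring, with Krt18 higher in atria (0.60, short of the line at 0.57 under median centring) and Efemp1 lower in ventricles (−0.69). The part of either cell type in the Pdpn values was not tested.

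**Figure D3:**
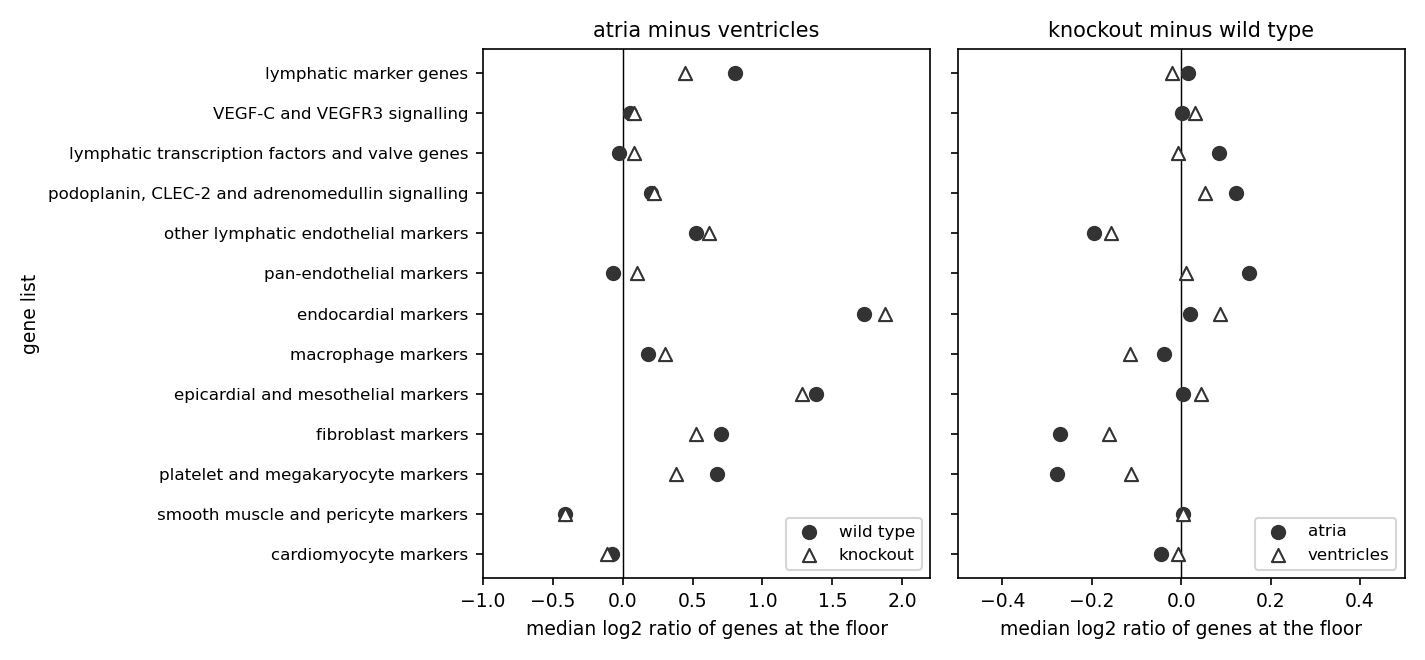
Median log2 ratio (horizontal axis) of the genes at the floor in each list, between chambers (left, wild type as circles, knockout as triangles) and between genotypes (right, atria as circles, ventricles as triangles), for lists with at least 5 such genes in every comparison. The 5 lymphatic marker genes at the floor have medians of 0.80 and 0.44 between chambers, which stand at −0.20 and −0.16 when Reln and Mmrn1 are kept, and medians of 0.02 and −0.02 between genotypes.

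Blood endothelium and endocardium were read beside Flt4 and Fgl2. As deposited, 0 of 18 pan-endothelial genes passed a threshold in the 4 comparisons, while 2 were past 2-fold towards atria in knockout under quantile normalization and under lowess centring. Their medians were −0.07 and 0.10 between chambers and 0.15 and 0.01 between genotypes. Their mean level lay between 8.16 and 8.30 on the 4 arrays. Endocardial genes were far on the atrial side, with medians of 1.73 and 1.88 and 5 of 9 past 2-fold in each genotype, among them Npr3 (2.74 in wild type) and Plvap (2.63). Their mean level was 7.86 and 7.88 in wild type and knockout atria and 6.59 and 6.70 in the ventricles. In each genotype 1 of the 5 genes past 2-fold, Adgrg6, lay below the floor in ventricles. Adgrg6 entered the count only through atria, where it is high. In knockout ventricles Npr3, the clearance receptor for natriuretic peptides, was higher by 0.68 beside Fgl2 at 0.63, and it was the 1 of 8 endocardial genes past 1.5-fold, with a list median of 0.09. In atria the list's genotype median was 0.02, with its sign turned under median centring. The part of endocardium in the Fgl2 values was not tested.

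Platelets share Mmrn1. Of the platelet and megakaryocyte genes 6 of 7 at the floor were on the atrial side in wild type and 8 of 8 in knockout, with medians of 0.68 and 0.38, beside −0.52 and −0.74 for Mmrn1. Of these, 2 and 5 reached the floor in atria only. Their mean level was 5.84 and 5.61 in wild type and knockout atria and 5.30 and 5.29 in the ventricles. The chemokine gene Ppbp was higher by 2.52 in wild type atria than ventricles and was lower by 2.12 in knockout than wild type atria, where Mmrn1 stood at −0.38. The genotype medians of this list were −0.28 and −0.11. Between atrial genotypes 3 of its 8 genes at the floor were higher in knockout and 5 were lower. Ppbp was the 1 past 1.5-fold as deposited, and 2 were past it under median centring. The part of platelets in the Mmrn1 values was not tested.

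Lymphocyte genes, 12 with a probe set, all lay below the floor on each array. The part of lymphocytes in the Fgl2 values was not tested. Of 12 neuron and Schwann cell genes, which bear on Reln, 4 reached the floor in atria and 2 between ventricular genotypes. Of these Ncam1, an adhesion gene that muscle cells also use, was higher in atria by 1.41 and 1.61, on the opposite side to Reln, with list medians of 0.57 and 0.89 between chambers and 0.14 and −0.31 between genotypes. Smooth muscle and pericyte genes had medians of −0.41 and −0.42 between chambers and 0.00 and 0.01 between genotypes. The genotype signs turned under other scalings. In wild type chambers 3 genes were past 2-fold lower in atria, led by Abcc9 at −1.97. The 1 gene past 2-fold higher was Cnn1 at 2.47, against a ventricular value below the floor (5.40). Between atrial genotypes Cnn1 was lower at −1.29. Acta2 was higher at 0.61, short of the line at 0.585 under median centring (0.580). Cardiomyocyte genes had genotype medians of −0.05 and −0.01, the second turning sign under median centring. In knockout ventricles 1 gene was higher, Myh7 at 0.99, and 1 was lower, Sln at −0.85. Sln lay below the floor in knockout ventricles, at 5.09.

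The genes most like Lyve1 and Fgl2 over the 4 arrays were found by the root mean square difference of values centred on each gene's mean, among 10114 genes. Lyve1 and Fgl2 were the members at the floor with a range of at least 1 log2 unit. For Lyve1 they were C4b, a complement component gene, Mdk, the growth factor gene of midkine, and Tnk2, a kinase gene, at differences of 0.03 each. C4b stood at 1.01 and 1.21 between chambers and at 0.06 and −0.14 between genotypes, beside 0.94, 1.16, 0.06 and −0.16 for Lyve1. C4b and Mdk, and Pilra among the genes near Fgl2, lay below the floor on both ventricular arrays, so their patterns rest in part on values near background. For Fgl2 they were Scd2, a fatty acid desaturase gene, Dpysl3, a gene of the collapsin response mediator family, and Pilra, an inhibitory receptor gene of myeloid cells, at 0.07, 0.09 and 0.09. Scd2 was higher by 0.61 in knockout than wild type ventricles and by 1.16 in wild type atria than ventricles. Only 4 values define each pattern, and many genes share a plain chamber difference.

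**Figure D4:**
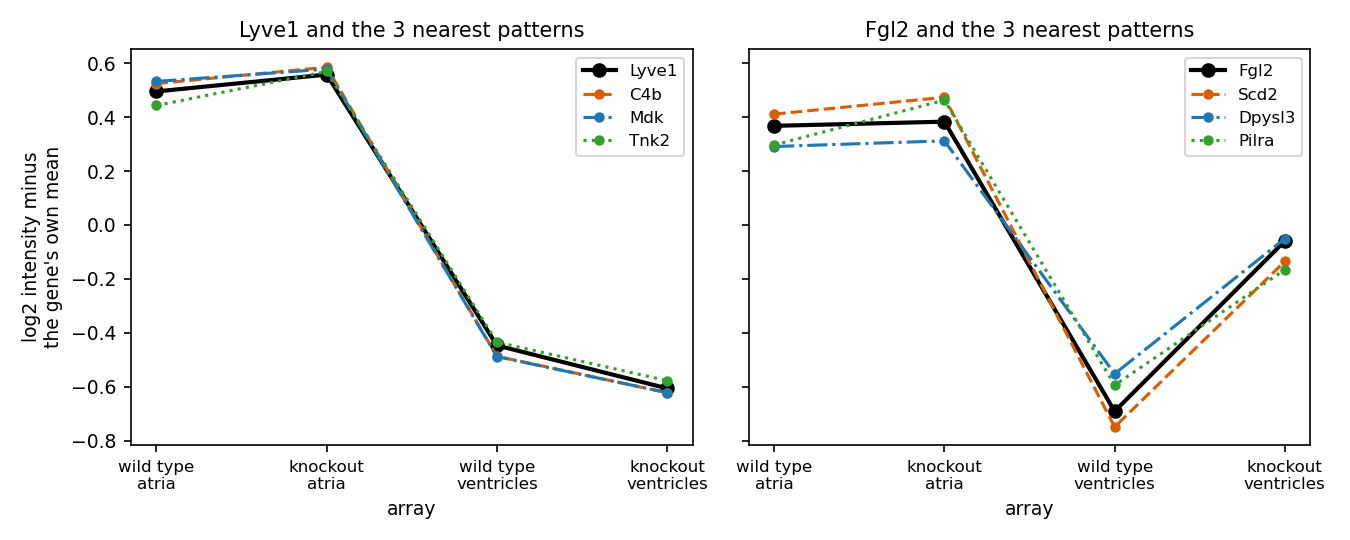
Log2 intensity minus the gene's own mean (vertical axis) on the 4 arrays for Lyve1 and Fgl2 (black) and the 3 genes nearest to each in pattern, 1 point per array. Lyve1 and its neighbours step down from atria to ventricles in both genotypes, while Fgl2 and its neighbours are lowest on the wild type ventricles array.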

How the data were processed

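The authors deposited log2 intensities from RMA in the affy package, per the submitters' processing notes. Tool versions and the array design are not given in the sources used here. RMA corrects background, evens out the arrays and compresses differences near background. Of 21212 probe sets, 18786 had 1 symbol in the platform annotation, updated through a RefSeq table of GRCm38.p6 by gene number (18775) or accession (6), with 5 kept as annotated. For 5 symbols with several probe sets the one with the highest mean was kept, which left 18781 genes.

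Ratios were computed in Python 3.11.15 with pandas 2.3.3. The members and the 15 lists (204 of 219 genes measured) were chosen with earlier results of these data known. Some genes are in more than 1 list, among them Kdr, Tek, Tie1, Nfatc1, Tcf21, Pf4 and Clec1b. From each list up to 4 genes past the fold per direction were named, or the 2 farthest where none passed, and the other list genes named (ligands, receptors, partners and defining markers of a member's cell types) were chosen after their values were seen. The script that counts genes past a fold was tested on simulated data. Alternatives were median centring, quantile normalization, lowess centring (statsmodels 0.14.6), other floors and folds, and averaged probe sets. No model was fitted, including an additive one over genotype and chamber, and the number of arrays limits the precision.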

Additional observations from a re-analysis of the deposited data

Results flagged for a closer look

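Lyve1 and Prox1 had genotype ratios of opposite sign in the chambers. For Lyve1 the ratio was 0.06 in atria and −0.16 in ventricles, a gap of 0.22. For Prox1 it was 0.23 in atria and −0.01 in ventricles, a gap of 0.23, and the ventricular sign turned under median centring. With 1 array per group these differences were not tested, and none of the 4 ratios reached 1.5-fold.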

How the results depend on the processing

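Counts of members past the fold, and the members counted, did not move with median centring, quantile normalization, lowess centring, no floor, a floor at the 75th percentile (7.27) and averaged probe sets. They moved with the fold: at 2-fold 0 members passed between ventricular genotypes, and at 1.5-fold 3 (Lyve1, Pdpn and Fgl2) passed between wild type chambers and 2 (Lyve1 and Pdpn) between knockout chambers. Over all genes, calls between genotypes went from 305 in atria and 117 in ventricles to 558 and 220 with no floor, 115 and 56 with the higher floor, and 65 and 36 at 2-fold. Calls between wild type and between knockout chambers went from 612 and 638 to 406 and 419 with the higher floor and 1632 and 1815 at 1.5-fold. The ventricular ratio of Fgl2 ranged from 0.60 to 0.66 over the scalings. Of 84 member ratios under another scaling, 0 changed their call and 3 uncalled ones near 0 turned sign, with a largest move of 0.16. A fit that pairs genotypes across chambers, or chambers across genotypes, was not run.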
